A study of Mus musculus with 8 samples.

Results

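The genes described here are Cxcl9, Cxcl10 and Cxcl11, which encode the interferon-inducible ligands of the chemokine receptor CXCR3. They were chosen by gene symbol, and all 3 are among the 11415 genes of the deposited table. Each was measured as mature mRNA and as pre-mRNA, the unspliced precursor, in total RNA of mouse bone marrow-derived macrophages, sequenced with a directional protocol after removal of ribosomal RNA. The macrophages were grown for 5 days in medium conditioned with M-CSF, the growth factor that drives macrophage development, and containing serum. The strain was 129S6/SvEvTac and the genotype IL10-/-RAG2-/- throughout, so the cells of every group, controls included, lacked their own Il10, and the mice lacked Rag2, which lymphocytes need to mature. Of 4 groups with 2 libraries each, the first was left untreated. The second received LPS, the bacterial lipopolysaccharide sensed by Toll-like receptor 4, at 1 ng/mL for 195 min. The third received LPS together with IL-10 at 1 ng/mL for the full 195 min, here called IL-10 throughout. The fourth received LPS for 195 min and had IL-10 added for only the final 30 min, here called late IL-10, and the labels do not restate its IL-10 dose. The design text names 2 independent macrophage pools, and p-values measure only how these libraries differ, which may be partly technical.

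CXCL9, CXCL10 and CXCL11 are secreted by macrophages and other cells and draw in CXCR3-bearing T helper 1 cells, cytotoxic T cells and natural killer cells. In macrophages, LPS acting through Toll-like receptor 4 induces interferon beta by way of the adaptor TRIF and the factor IRF3. Interferon beta then acts back on the cells through STAT and IRF factors, and NF-kB contributes at many of the same genes. IL-10 signals through STAT3 and restrains inflammatory gene expression. Cxcl10 responds to NF-kB, type I and type II interferon, whereas Cxcl9 is best known as a target of interferon gamma.

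The 3 genes lie side by side on the minus strand of chromosome 5 of the mouse genome (GRCm38.p6, RefSeq). Cxcl9 spans 92321331 to 92328079, Cxcl10 spans 92346638 to 92348889, and Cxcl11 spans 92359544 to 92363296. Cxcl9 and Cxcl10 are protein-coding genes with 4 exons each. Cxcl11 is annotated as a transcribed pseudogene in RefSeq and as a polymorphic pseudogene in GENCODE M21. Both annotations describe the reference strain and not 129S6/SvEvTac, and the coding sequence that these cells carried was not examined. Art3, a gene on the plus strand from 92331799 to 92414628, overlaps Cxcl10 and Cxcl11. It is not among the genes of the table, and whether counting used strand is not given in the sources used here, so a share of Art3 reads in the Cxcl10 and Cxcl11 pre-mRNA values was not tested.

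The 250 bases before the RefSeq start of Cxcl9 (chr5:92328080-92328329, minus strand) and of Cxcl10 (chr5:92348890-92349139, minus strand) are shown 5′ to 3′, from the RefSeq promoter table for GRCm38.p6. Capitals mark matches to an interferon-stimulated response element (ISRE), an NF-kB motif or an AP-1 motif, searched on both strands. Cxcl11 had no entry in that table.
Cxcl9: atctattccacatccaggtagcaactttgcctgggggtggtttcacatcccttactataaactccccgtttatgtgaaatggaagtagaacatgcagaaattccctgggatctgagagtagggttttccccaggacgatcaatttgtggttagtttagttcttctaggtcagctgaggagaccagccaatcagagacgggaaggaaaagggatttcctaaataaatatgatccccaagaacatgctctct
Cxcl10: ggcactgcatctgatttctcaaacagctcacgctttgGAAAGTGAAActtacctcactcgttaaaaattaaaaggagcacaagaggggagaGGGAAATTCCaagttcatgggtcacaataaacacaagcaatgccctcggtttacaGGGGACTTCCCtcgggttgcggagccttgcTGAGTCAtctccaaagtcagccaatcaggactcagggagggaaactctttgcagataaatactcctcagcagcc

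The Cxcl10 window held an ISRE match from 213 to 204 bases before the start. It held NF-kB matches from 159 to 150 bases and, as a pair that overlap each other, from 104 to 94 bases before the start, and an AP-1 match (TGANTCA) from 74 to 68 bases. Among 32851 promoter windows of the same length, 2.98% held the ISRE motif, 7.25% the NF-kB motif and 6.75% the AP-1 motif. The Cxcl9 window held no match to these 3 motifs or to the GAS motif (TTCNNNGAA, in 7.02% of windows), and no match says only that these letters are not in this window. Both windows held a CCAAT box (in 33.8% of windows), from 65 to 61 bases before the Cxcl9 start and from 54 to 50 bases before the Cxcl10 start. The longest run that they share, cagccaatcag, contains it and is found in 131 of the windows (0.399%). A TATAAA match (in 12.4% of windows) stood 195 to 190 bases before the Cxcl9 start. A match is a description and not a bound site.

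The deposited values are means of 2 libraries, from which both libraries' read counts were worked out exactly. Levels below are normalised reads, that is reads divided by the library's size factor, with the mRNA and pre-mRNA measures scaled separately. In every group and measure, A stands for the library that had the larger size factor and B for its partner, so that A of one group or measure need not share a pool with A of another. Summed over the table's genes, a library had between 21412968 and 53172133 reads assigned to mRNA and between 8661271 and 31508394 assigned to pre-mRNA, and no gene in it had fewer than 11 mRNA reads in an LPS library.

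Within each LPS-treated group the 2 libraries stood apart for interferon-driven genes. Library A minus library B on the log2 scale had a median over the 3 ligand genes of -2.02 for LPS mRNA, 0.63 for IL-10 throughout and 2.07 for late IL-10, against 0.03 in untreated cells. Over 20 other interferon-stimulated genes chosen for comparison, the corresponding medians were -1.51, 1.49 and 1.46, and all 20 were higher in the same library of each of these groups. The neutrophil-attracting CXC chemokines had smaller gaps than these 20 genes, with medians of -0.255, 0.768 and 0.415. Under IL-10 throughout, their gap was larger than that of the ligand genes. In pre-mRNA the medians over the ligand genes were 1.75 for LPS, 0.242 for IL-10 throughout and 1.34 for late IL-10. Those over the 20 interferon-stimulated genes were 1.3, 1.64 and 1.22, and all 20 were higher in library A of each of these groups. For 3 neutrophil-attracting CXC chemokines tested in pre-mRNA they were -0.479, 0.625 and -0.384. Tests of the ligand genes therefore carry a wide error, and values with a library left out are given beside them.

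All 8 macrophage markers were in the table, including Adgre1, Csf1r and Cd68, with a summed mRNA level of 496400 to 513000 in untreated libraries, 790000 to 836400 under LPS, 606000 to 644700 under IL-10 throughout and 795000 to 811900 under late IL-10. Cd14, 1 of the 8, had a mean of 26410 in untreated cells, 253400 under LPS and 177200 under IL-10 throughout. The median fitted change of the 8 under LPS was -0.0693 on the log2 scale. Of 11 T and NK cell markers the table held only Cd4 and Lck (summed level 23.81 to 483.4 over all libraries), and it held none of 3 B cell markers. Since no gene in the table had fewer than 11 mRNA reads in an LPS library, a gene missing from it, here or below, may still have been expressed.

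LPS raised all 3 ligand genes from low or undetected levels to high levels, in mRNA and in pre-mRNA. Cxcl10 was present at a low level in untreated cells, whereas Cxcl9 and Cxcl11 were at or next to 0 there. The plot of each library's value shows the order of the groups gene by gene.

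**Figure D1:**
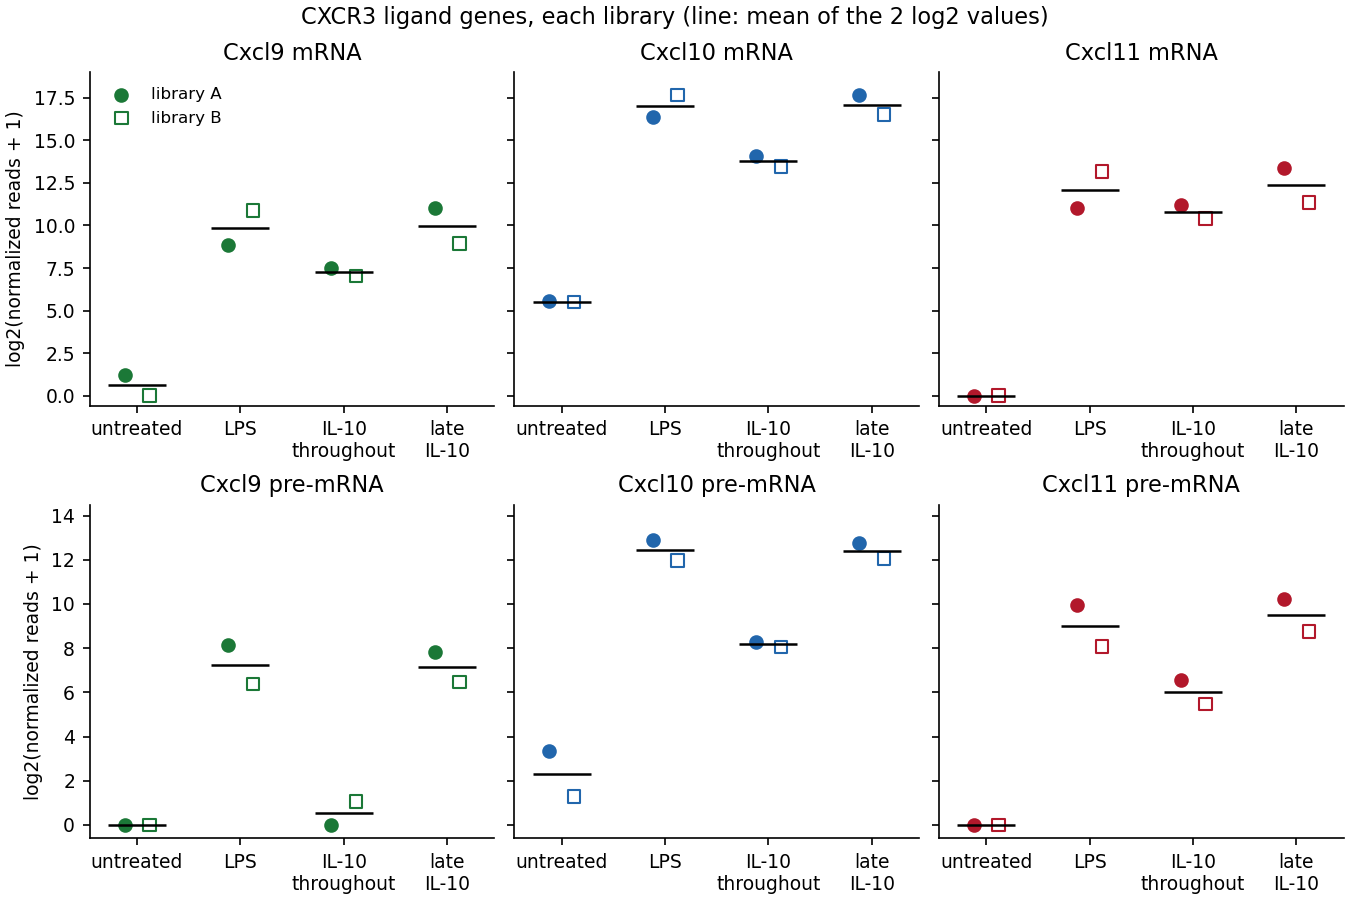
Level of Cxcl9, Cxcl10 and Cxcl11 in each library, as log2(normalised reads + 1), for mRNA (top) and pre-mRNA (bottom). Filled circles are library A, open squares library B, and lines are the mean of the 2 log2 values. Untreated libraries lie lowest in 5 of the 6 panels without overlap, Cxcl9 pre-mRNA under IL-10 throughout lies beside the untreated libraries, and LPS and late IL-10 overlap in every panel.

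Cxcl10 mRNA stood at 45.64 and 44.68 normalised reads in untreated libraries A and B and at 83310 and 207600 in the LPS libraries. The groups were far apart although the LPS libraries differed from each other, and the ratio of means was 3220. The fitted rise was 11.48 ± 0.53 on the log2(normalised reads + 1) scale (SE, n = 2 libraries a group; limma-trend, adjusted p = 3.1e-05). Cxcl10 pre-mRNA went from 9.056 and 1.457 to 7632 and 4012 (1110-fold by the means, from 18 reads in all in untreated cells). Both LPS libraries lay far above both untreated ones, with a fitted rise of 10.12 ± 0.63 (limma-trend, adjusted p = 4.5e-05).

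Cxcl11 had no mRNA read and no pre-mRNA read in either untreated library. LPS libraries A and B held 2099 and 9141 normalised mRNA reads, which is at least 3930-fold higher when the reads of both libraries are pooled over their summed size factors and untreated cells are set at 3 reads in all. Their pre-mRNA levels were 984.7 and 268.6, at least 557-fold higher by the same floor. The fitted rises were 12.10 ± 0.84 for mRNA (limma-trend, adjusted p = 0.00018) and 9.01 ± 0.73 for pre-mRNA (adjusted p = 0.00014), and such a fitted value depends on the pseudocount of 1.

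Cxcl9 was the lowest of the 3 genes under LPS. Its mRNA had 2 reads in untreated library A (1.323 normalised) and 0 in library B, against 460.6 and 1873 normalised reads in the LPS libraries. With the reads of both libraries pooled over their summed size factors, as for each counting interval here, LPS was 1230 times higher (95% interval 339 to 10100, covering counting error only). Its pre-mRNA had no read in untreated cells and 279.7 and 82.33 normalised reads under LPS (at least 160-fold higher by the floor of 3 reads). The fitted rises were 9.25 ± 0.89 for mRNA (limma-trend, adjusted p = 0.00053) and 7.26 ± 0.82 for pre-mRNA (adjusted p = 0.00048).

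Counted over all genes tested, 19.2% rose in mRNA and 22.3% in pre-mRNA under LPS, and all 3 ligand genes were among them in both measures. Of 11415 genes ordered by the fitted mRNA change, Cxcl11 was at place 4, Cxcl10 at place 9 and Cxcl9 at place 35 from the highest. In pre-mRNA, over 11131 genes tested, the places were 37, 18 and 89 for Cxcl11, Cxcl10 and Cxcl9. Every gene of the table had at least 11 mRNA reads in each LPS library. These places, and the shares of all genes here and below, therefore hold only within that set. Cxcl9 and Cxcl11, with 2 and 0 mRNA reads in untreated cells, reached that number only in groups given LPS. The order among the ligand genes in mRNA depends on the pseudocount, since Cxcl11 had no untreated read: with a pseudocount of 8 the mRNA rises were 9.10 for Cxcl11, 11.27 for Cxcl10 and 6.76 for Cxcl9. Leaving out each library in turn gave mRNA rises of 11.04 to 13.16 for Cxcl11, 10.82 to 12.13 for Cxcl10 and 8.24 to 10.26 for Cxcl9, and all of these passed. Scaling to total reads moved the median mRNA change of all genes by -0.748, and the rises of the ligand genes were then 11.85, 10.74 and 8.84 for Cxcl11, Cxcl10 and Cxcl9.

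Per kilobase of the principal transcript (GENCODE M21, with lengths of 2889 bases for Cxcl9, 1094 for Cxcl10 and 1581 for Cxcl11), so that genes can be compared, Cxcl10 mRNA was far above the other ligand genes. In the LPS libraries A and B it stood at 76150 and 189800 normalised reads per kilobase, Cxcl11 at 1328 and 5782, and Cxcl9 at 159.4 and 648.2. The order was the same without overlap under IL-10 throughout, at 16000 and 10340 for Cxcl10, 1485 and 863.7 for Cxcl11, and 63.1 and 44.87 for Cxcl9. Under late IL-10 the values were 191500 and 85590 for Cxcl10, 6857 and 1634 for Cxcl11, and 716.9 and 170.9 for Cxcl9, again in this order without overlap. Cxcl10 stood at 41.72 and 40.84 in untreated cells. The gene models that the authors counted on are not known here, and other models would scale each gene by its own constant.

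IL-10 given throughout lowered Cxcl10 in both measures and Cxcl9 in pre-mRNA. The largest fitted fall was that of Cxcl9 pre-mRNA, which was back at about the untreated level. Cxcl11 had lower values in pre-mRNA that missed the threshold, and its mRNA ranges overlapped with LPS alone.

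Cxcl10 mRNA was 17500 and 11310 normalised reads under IL-10 throughout, against 83310 and 207600 under LPS alone. Both libraries with IL-10 were below both without it, at 9.90% of the LPS mean, and far above the untreated level. The fitted change was -3.23 ± 0.53 (limma-trend, adjusted p = 0.032; 95% interval -4.47 to -1.98), and 1.05% of all genes fell in this comparison. Without LPS library B the change was -2.57 and without LPS library A it was -3.88. The call was lost when either untreated library, either IL-10 throughout library or LPS library B was left out, with adjusted p values from 0.025 to 0.17 over the 8 omissions, and with only the 2 groups compared in the fit (adjusted p = 0.091).

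Cxcl10 pre-mRNA was 312.7 and 264.3 normalised reads, against 7632 and 4012 under LPS. This was 4.95% of the LPS mean, with no overlap. It fell by 4.26 ± 0.63 on the log2 scale (limma-trend, adjusted p = 0.013), where 4.26% of all genes fell in pre-mRNA. Leaving out each library in turn gave changes from -4.73 to -3.80, and the call was lost without LPS library A or either library of IL-10 throughout (adjusted p up to 0.092), and with no filter on low values (adjusted p = 0.052).

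Cxcl9 pre-mRNA had 0 reads in library A and 1 read in library B (1.079 normalised) under IL-10 throughout, against 279.7 and 82.33 normalised reads under LPS. In all, 1 read stood against 299 reads, which makes LPS 429 times higher (95% counting interval 76.4 to 17000). The fitted change was -6.73 ± 0.82 (limma-trend, adjusted p = 0.0066; 0.072 by limma-voom), and it was the third from the lowest of 11131 genes. Leaving out each library in turn gave changes from -7.61 to -5.85, and the call held in all 8 omissions (adjusted p from 0.01 to 0.046). Against untreated cells, in which no Cxcl9 pre-mRNA read was seen, the change was 0.53 ± 0.82 (limma-trend, adjusted p = 0.66). With so few reads, a low remaining level was not detectable at this depth.

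Cxcl9 mRNA did not follow its pre-mRNA to the untreated level. It was 182.3 and 129.6 normalised reads, below both LPS libraries (460.6 and 1873), at 13.4% of the LPS mean. The fitted change of -2.59 ± 0.89 did not pass (limma-trend, adjusted p = 0.23; 95% interval -4.69 to -0.488), and it was -3.60 without LPS library A and -1.58 without LPS library B. Against untreated cells the mRNA was still 183 times higher (95% counting interval 50.4 to 1520), with a fitted difference of 6.67 (limma-trend, adjusted p = 0.0026; 0.062 by limma-voom).

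Cxcl11 mRNA was 2348 and 1365 normalised reads under IL-10 throughout, which overlapped the LPS libraries at 2099 and 9141. The mean was 33.0% of the LPS mean, and the fitted change was -1.29 ± 0.84 (limma-trend, adjusted p = 0.58; 95% interval -3.28 to 0.704). It was -2.35 without LPS library A and -0.23 without LPS library B. The higher mRNA library stood at 2348 under IL-10 throughout and 9141 under LPS, and the lower at 1365 and 2099. Whether these share a pool is not known. Cxcl11 pre-mRNA was 92.19 and 43.15, below 984.7 and 268.6 without overlap and at 10.8% of the LPS mean. Its change of -3.01 ± 0.73 lay next to the threshold (limma-trend, adjusted p = 0.052; 95% interval -4.71 to -1.30), and it passed under upper-quartile scaling (-2.77, adjusted p = 0.049) and with a pseudocount of 8 (-2.87, adjusted p = 0.048). Leaving out LPS library A gave -2.07 and leaving out LPS library B gave -3.94, which passed.

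**Figure D2:**
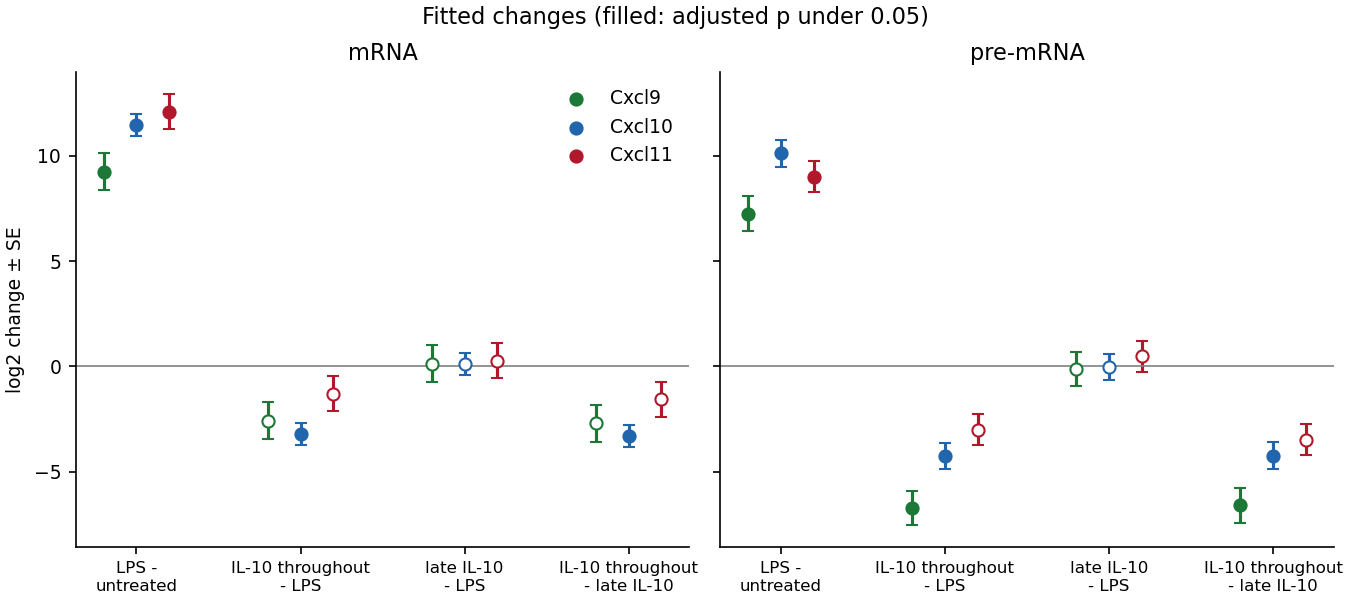
Fitted log2 changes ± SE of the 3 ligand genes in 4 comparisons, for mRNA (left) and pre-mRNA (right). Filled points have an adjusted p under 0.05 by limma-trend; for IL-10 throughout against LPS these are Cxcl10 in both measures and Cxcl9 in pre-mRNA, while Cxcl11 pre-mRNA at -3.01 is open and passes under upper-quartile scaling. All points of late IL-10 against LPS lie near 0.

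To place these levels, the genes that LPS raised by at least 5 on the log2 scale were pooled. Over 237 such genes in mRNA, the median level under IL-10 throughout was 27.6% of the LPS mean, and 43 genes were at or below Cxcl10, 58 at or below Cxcl9 and 139 at or below Cxcl11. Over 251 such genes in pre-mRNA the median was 20.6%, and 2 genes were at or below Cxcl9 (0.298% of the LPS mean), 29 at or below Cxcl10 and 65 at or below Cxcl11. The ligand genes are members of both sets, and these places are a description.

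IL-10 given for the last 30 min left all 3 ligand genes at about the LPS level. In mRNA, Cxcl9 was 2071 and 493.9 normalised reads, Cxcl10 was 209500 and 93640, and Cxcl11 was 10840 and 2583, each range overlapping that of LPS alone. The means were 110%, 104% and 119% of the LPS means for Cxcl9, Cxcl10 and Cxcl11. The fitted changes were 0.12 (95% interval -1.98 to 2.22), 0.09 (-1.15 to 1.33) and 0.27 (-1.72 to 2.27), each with an adjusted p of 1.0 by limma-trend. No gene passed in mRNA in this comparison (0% of 11415). Leaving out each library in turn moved these changes to both sides of 0, from -0.91 to 1.16 for Cxcl9, -0.57 to 0.75 for Cxcl10 and -0.79 to 1.33 for Cxcl11. These shifts carry the gap between the 2 libraries of a group, since the library that remains then stands for its group. The higher library stood at 2071 under late IL-10 and 1873 under LPS for Cxcl9, and the lower at 493.9 and 460.6. For Cxcl10 these were 209500 and 207600, and 93640 and 83310. For Cxcl11 they were 10840 and 9141, and 2583 and 2099. Which libraries share a pool is not known. By limma-voom the count of genes passing was also 0, with scaling to total reads it was 3, and at an unadjusted p under 0.05 it was 107.

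In pre-mRNA under late IL-10, Cxcl9 was 222.5 and 87.53 normalised reads, Cxcl10 was 6928 and 4273, and Cxcl11 was 1181 and 429.8. All these ranges again overlapped those of LPS alone, with means at 85.7%, 96.2% and 129% of the LPS means. The fitted changes were -0.12 (95% interval -2.02 to 1.77), -0.02 (-1.49 to 1.45) and 0.47 (-1.24 to 2.18), with adjusted p of 1.0 by limma-trend, where 1.04% of all genes passed in either direction. Here too the sign changed with single libraries left out, over -1.0 to 0.76 for Cxcl9, -0.49 to 0.44 for Cxcl10 and -0.47 to 1.41 for Cxcl11. With 2 libraries a group, and with the gap between them left in the error of the fit, these intervals are wide. A moderate change in either direction was not detectable by this unpaired fit.

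The direct comparison of the schedules, IL-10 throughout against late IL-10, separated Cxcl10 in both measures and Cxcl9 in pre-mRNA. Cxcl10 mRNA was lower by a fitted -3.32 ± 0.53 (limma-trend, adjusted p = 0.042; 0.569% of all genes were lower), and leaving out each library gave -3.90 to -2.74, with the call lost in 6 of 8 omissions. Cxcl10 pre-mRNA differed by -4.24 ± 0.63 (adjusted p = 0.026; 2.2% of all genes were lower), with -4.59 to -3.89 over the omissions and the call lost in 4 of them. Cxcl9 pre-mRNA, with 1 read against 330 reads, differed by -6.61 ± 0.82 (adjusted p = 0.021), from -7.28 to -5.94 over the omissions, and the call was lost in 3. In each of these cases both libraries of IL-10 throughout were below both libraries of late IL-10.

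The remaining values of that comparison did not pass. Cxcl9 mRNA differed by -2.71 ± 0.89 (limma-trend, adjusted p = 0.24) and Cxcl11 mRNA by -1.56 ± 0.84 (adjusted p = 0.48), with -3.74 to -1.68 and -2.60 to -0.53 when each library was left out. Cxcl11 pre-mRNA differed by -3.48 ± 0.73 (adjusted p = 0.052), and it passed under upper-quartile scaling (-3.29, adjusted p = 0.045) and under scaling to total reads (-3.04, adjusted p = 0.046).

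Under both schedules most values of the ligand genes stayed above those of untreated cells. Compared with the LPS means, IL-10 throughout left 9.9% to 33.0% in mRNA and 0.298% to 10.8% in pre-mRNA. Under IL-10 throughout, the fitted differences from untreated cells were 8.25 for Cxcl10 mRNA (limma-trend, adjusted p = 0.00017; 14.2% of all genes were higher) and 10.81 for Cxcl11 mRNA (adjusted p = 0.00032), the latter at least 1470-fold by the floor of 3 reads. In pre-mRNA they were 5.86 for Cxcl10 (adjusted p = 0.00067; 14.1% of all genes were higher) and 6.0 for Cxcl11 (adjusted p = 0.0012, or 0.12 by limma-voom; at least 61.8-fold). Cxcl9 pre-mRNA, at 1 read, was the exception. Under late IL-10 all 6 values passed, from 7.14 for Cxcl9 pre-mRNA to 12.37 for Cxcl11 mRNA, beside 19.3% of all genes higher in mRNA and 21.9% in pre-mRNA. These comparisons use the same untreated libraries as LPS against untreated.

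The ligand genes changed in different proportions among themselves. Within a library, where the size factor cancels, Cxcl11 had 2.52 and 4.40 mRNA reads per 100 Cxcl10 reads in LPS libraries A and B. Under IL-10 throughout it had 13.4 and 12.1, above both LPS libraries, and under late IL-10 5.17 and 2.76, which overlapped LPS. The mean log2 difference of this ratio between IL-10 throughout and LPS was 1.93. The exact two-sided permutation test gave p = 0.33, the smallest that 2 against 2 libraries allow, so these ratios are descriptions. Cxcl11 per 100 Cxcl9 mRNA reads was 456 and 488 under LPS, 1290 and 1050 under IL-10 throughout, and 523 in both late IL-10 libraries. That ratio was nearly the same in the 2 libraries of LPS although their levels of both genes differed several-fold.

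Cxcl9 per 100 Cxcl10 mRNA reads moved less, from 0.553 and 0.902 under LPS to 1.04 and 1.15 under IL-10 throughout and 0.988 and 0.527 under late IL-10. In pre-mRNA, Cxcl11 per 100 Cxcl10 reads was 12.9 and 6.69 under LPS, 29.5 and 16.3 under IL-10 throughout, and 17.1 and 10.1 under late IL-10. Cxcl9 per 100 Cxcl10 pre-mRNA reads was 3.66 and 2.05 under LPS, 0 and 0.408 under IL-10 throughout, and 3.21 and 2.05 under late IL-10. Under IL-10 throughout Cxcl9 was thus low relative to Cxcl10 in pre-mRNA and somewhat high relative to it in mRNA, with 1 pre-mRNA read behind the former.

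The amount of pre-mRNA beside mRNA also differed between groups. Per 100 normalised mRNA reads, on separately scaled measures, Cxcl9 had 15.5 normalised pre-mRNA reads under LPS, 0.346 under IL-10 throughout and 12.1 under late IL-10. Cxcl10 had 4.0, 2.0 and 3.69, and Cxcl11 had 11.1, 3.64 and 12. All 3 genes had their lowest value under IL-10 throughout. Fitted jointly, the pre-mRNA change minus the mRNA change for IL-10 throughout against LPS was -4.14 ± 1.26 for Cxcl9 (limma-trend, unadjusted p = 0.0067, adjusted p = 0.91), -1.04 for Cxcl10 and -1.72 for Cxcl11 (adjusted p = 1.0 each). None of the 3 passed, where 0.0629% of all genes did, and none passed for LPS against untreated (adjusted p from 0.35 to 0.72; 1.24% of genes passed) or late IL-10 against LPS (adjusted p = 1.0; 0.135%). The joint fit treats the 2 measures of 1 RNA sample as independent.

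Turning to the rest of the pathway, the table held 6 of 10 genes for the CXCR3 receptor, related receptors and ligand processing, and not Dpp4, which trims these ligands. Under LPS, 3 of the 6 rose in mRNA, beside 19.2% of all genes (median 1.86, against 0.0075 over all genes), namely Sdc4, a cell-surface proteoglycan, by 5.98 ± 0.55 (limma-trend, adjusted p = 0.00046), the platelet chemokine Pf4 by 2.93 ± 0.57 (adjusted p = 0.0088) and the metalloproteinase Mmp9 by 3.77 ± 0.98 (adjusted p = 0.024). Under IL-10 throughout none of the 6 passed against LPS in mRNA (median -0.478, against -0.019 over all genes) or in pre-mRNA (median -0.153, against 0.0015). Cxcr3, the receptor itself, had low mRNA levels of 97.9 and 141.5 in untreated cells, 139.1 and 204.5 under LPS, 56.3 and 39.32 under IL-10 throughout, and 185.4 and 123.9 under late IL-10. Both libraries of IL-10 throughout were the lowest, with a change of -1.82 ± 0.39 against LPS that did not pass (limma-trend, adjusted p = 0.072). Pf4 differed by -1.55 there (adjusted p = 0.27).

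Upstream of the ligands, 1 of 8 interferon genes was in the table, Ifnb1, which encodes interferon beta, and Ifng was not. Ifnb1 mRNA had no read in untreated cells and stood at 92.74 and 273.1 normalised reads under LPS, 15.19 and 17.0 under IL-10 throughout, and 175.3 and 108.8 under late IL-10. As with Cxcl10, both libraries of IL-10 throughout were below both of LPS, and late IL-10 overlapped LPS. It rose by 7.33 under LPS (limma-trend, adjusted p = 0.00032) and fell by 3.23 ± 0.61 under IL-10 throughout against LPS (adjusted p = 0.049). Its pre-mRNA was listed at 0 in every library, so nothing can be said of its precursor.

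Among 10 tested genes of the LPS receptor and the TRIF arm, 7 rose under LPS in mRNA (median 1.15), beside 19.2% of all genes. Against LPS, 1 of the 10 fell under IL-10 throughout in mRNA and 1 in pre-mRNA, beside 1.05% and 4.26% of all genes. In both cases it was Ticam2, which encodes the bridging adaptor TRAM, with changes of -1.84 ± 0.25 in mRNA (limma-trend, adjusted p = 0.017) and -2.10 ± 0.36 in pre-mRNA (adjusted p = 0.019). Of 9 NF-kB subunit and inhibitor genes, all 9 rose under LPS in mRNA (median 3.88), again beside 19.2% of all genes. Under IL-10 throughout none of these passed in mRNA (median -0.76), and 3 fell in pre-mRNA (median -0.943), beside 4.26% of all genes, namely Nfkbiz, Nfkbib and Nfkbie, of which Nfkbiz had the largest change, -1.65 ± 0.26 (limma-trend, adjusted p = 0.016).

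The interferon receptors, JAK-STAT genes and IRF factors relay the interferon signal to the ligand genes. Of 15 tested, 9 rose under LPS in mRNA (median 1.09), beside 19.2% of all genes. Under IL-10 throughout none passed against LPS in mRNA (median -0.483), but 5 fell in pre-mRNA (median -0.992), beside 4.26% of all genes. Among them were Irf1, a factor that drives interferon-inducible promoters, with a change of -2.19 ± 0.30 (limma-trend, adjusted p = 0.0094), the kinase Tyk2 with -1.41 ± 0.22 (adjusted p = 0.016), Irf7 with -2.57 ± 0.48 (adjusted p = 0.025) and Stat2 with -2.13 ± 0.41 (adjusted p = 0.027). In mRNA the changes of Irf1 and Irf7 were -1.79 and -2.37 and did not pass (limma-trend, adjusted p = 0.064 and 0.14). None of the 15 passed under late IL-10 against LPS in either measure.

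The 20 interferon-stimulated comparison genes all rose under LPS in mRNA (median 6.91), beside 19.2% of all genes. Gbp5, a guanylate-binding protein, rose by 9.64 ± 0.66 (limma-trend, adjusted p = 0.00017), and Ifit1, an antiviral RNA-binding protein, rose by 9.57 ± 0.91 (adjusted p = 0.00052). Under IL-10 throughout, none passed against LPS in mRNA (median -2.40), although 17 were lower at an unadjusted p under 0.05. In pre-mRNA 13 of 20 fell (median -2.82), where 4.26% of all genes fell and their median was 0.0015, led by Oasl1 with -2.76 ± 0.36 (limma-trend, adjusted p = 0.0077) and Ifit3 with -4.42 ± 0.69 (adjusted p = 0.015). The ligand genes' medians in the same comparison were -2.59 in mRNA and -4.26 in pre-mRNA. Under late IL-10 none of the 20 passed in either measure (pre-mRNA median -0.0513).

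Among other chemokines, some genes fell under IL-10 throughout in mRNA. Of 5 neutrophil-attracting CXC chemokine genes, 3 fell against LPS (median -3.48), beside 1.05% of all genes, namely Cxcl1 with a change of -3.52 ± 0.26 (limma-trend, adjusted p = 0.0044), Cxcl2 with -3.02 ± 0.35 (adjusted p = 0.0093) and Cxcl3 with -3.89 ± 0.47 (adjusted p = 0.01). These changes were about as large as that of Cxcl10, with smaller standard errors. Of 8 inflammatory CC chemokine genes 2 fell in mRNA (median -3.47), Ccl17 with -5.57 ± 0.65 (adjusted p = 0.0093) and Ccl2 with -3.93 ± 0.68 (adjusted p = 0.038), and 5 of 8 fell in pre-mRNA (median -3.18), beside 4.26% of all genes. Whether the ligand genes differ from these groups was not tested.

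**Figure D3:**
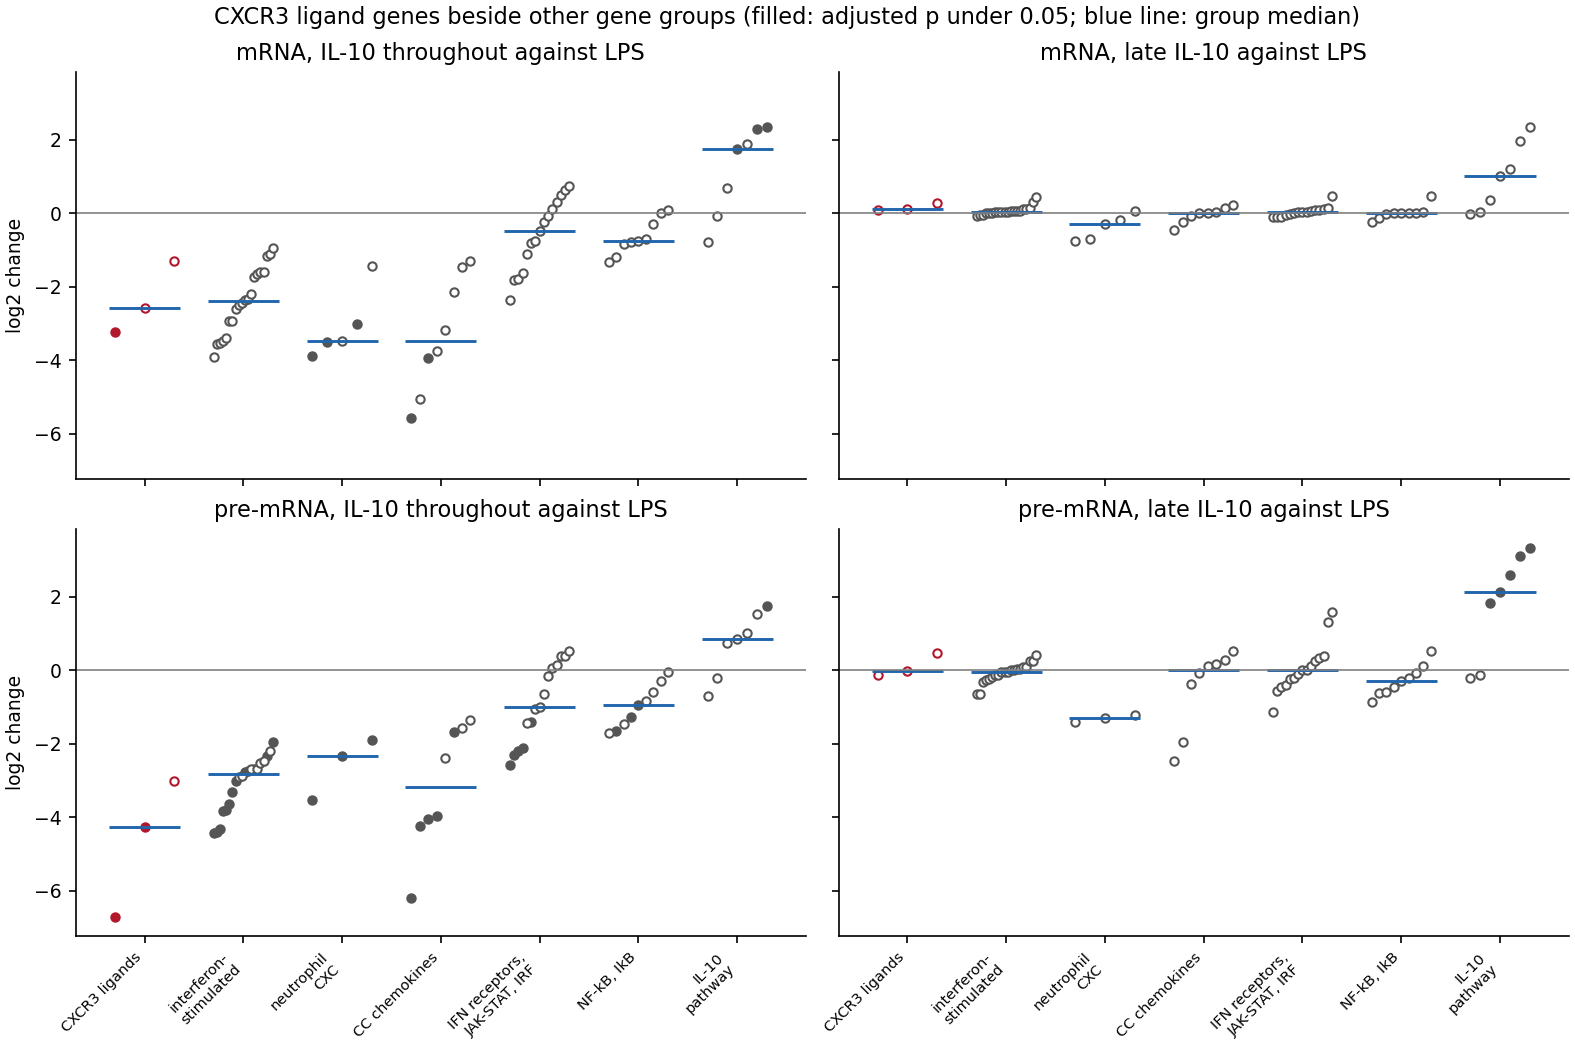
Fitted log2 changes of each gene, by gene group, for IL-10 throughout (left) and late IL-10 (right) against LPS, in mRNA (top) and pre-mRNA (bottom). Filled points have an adjusted p under 0.05, blue lines are group medians, and the ligand genes are in red; under late IL-10 the only filled points among these groups are 5 of the 7 IL-10 pathway genes, in pre-mRNA.

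Late IL-10 raised the pre-mRNA of most IL-10 pathway genes tested. Of 7 genes of the IL-10 receptor pathway, 5 rose in pre-mRNA against LPS (median 2.12, against -0.048 over all genes; 0.979% of all genes rose). These were Nfil3 by 3.33 ± 0.31 (limma-trend, adjusted p = 0.004), Bcl3 by 2.59 ± 0.29 (adjusted p = 0.0079), Etv3 by 3.11 ± 0.41 (adjusted p = 0.014), Stat3 by 2.12 ± 0.32 (adjusted p = 0.028) and Sbno2 by 1.82 ± 0.31 (adjusted p = 0.048), which encode transcription factors and cofactors of the IL-10 response. In the same pre-mRNA libraries the ligand genes stood at 85.7% to 129% of LPS. Under IL-10 throughout 3 of the 7 rose in mRNA (median 1.74), namely Sbno2, Stat3 and Etv3, beside 1.19% of all genes, and 1 rose in pre-mRNA, Bcl3, beside 2.44%. Of 6 interferon feedback genes, of which Isg15 and Usp18 are also among the interferon-stimulated genes, 5 rose under LPS in mRNA (median 7.34), beside 19.2% of all genes, among them Socs3 and Socs1, and Socs1, an inhibitor of JAK signalling, fell by 2.04 ± 0.34 in mRNA under IL-10 throughout (limma-trend, adjusted p = 0.035).

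Genes next to the ligands had smaller changes under LPS. Of the genes within 200 kb, 6 others were in the table (G3bp2, Uso1, Naaa, Sdad1, Nup54 and Scarb2). Under LPS 3 of the 6 rose in mRNA (Uso1, Sdad1 and Nup54), beside 19.2% of all genes, and the range of all 6 was -0.601 to 1.89, against 9.25 to 12.10 for the ligand genes. Under IL-10 throughout none of the 6 passed against LPS in mRNA, with a range of -0.61 to 0.555. In pre-mRNA 1 of the 6, Scarb2, fell by 1.92 ± 0.41 (limma-trend, adjusted p = 0.036), beside 4.26% of all genes. Under late IL-10 against LPS, 1 of the 6 rose in pre-mRNA, beside 0.979% of all genes. It was Naaa, a lysosomal amidase, by 2.59 ± 0.33 (limma-trend, adjusted p = 0.013). For IL-10 throughout against late IL-10, 2 of the 6 were lower in pre-mRNA, beside 2.2% of all genes.

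**Figure D4:**
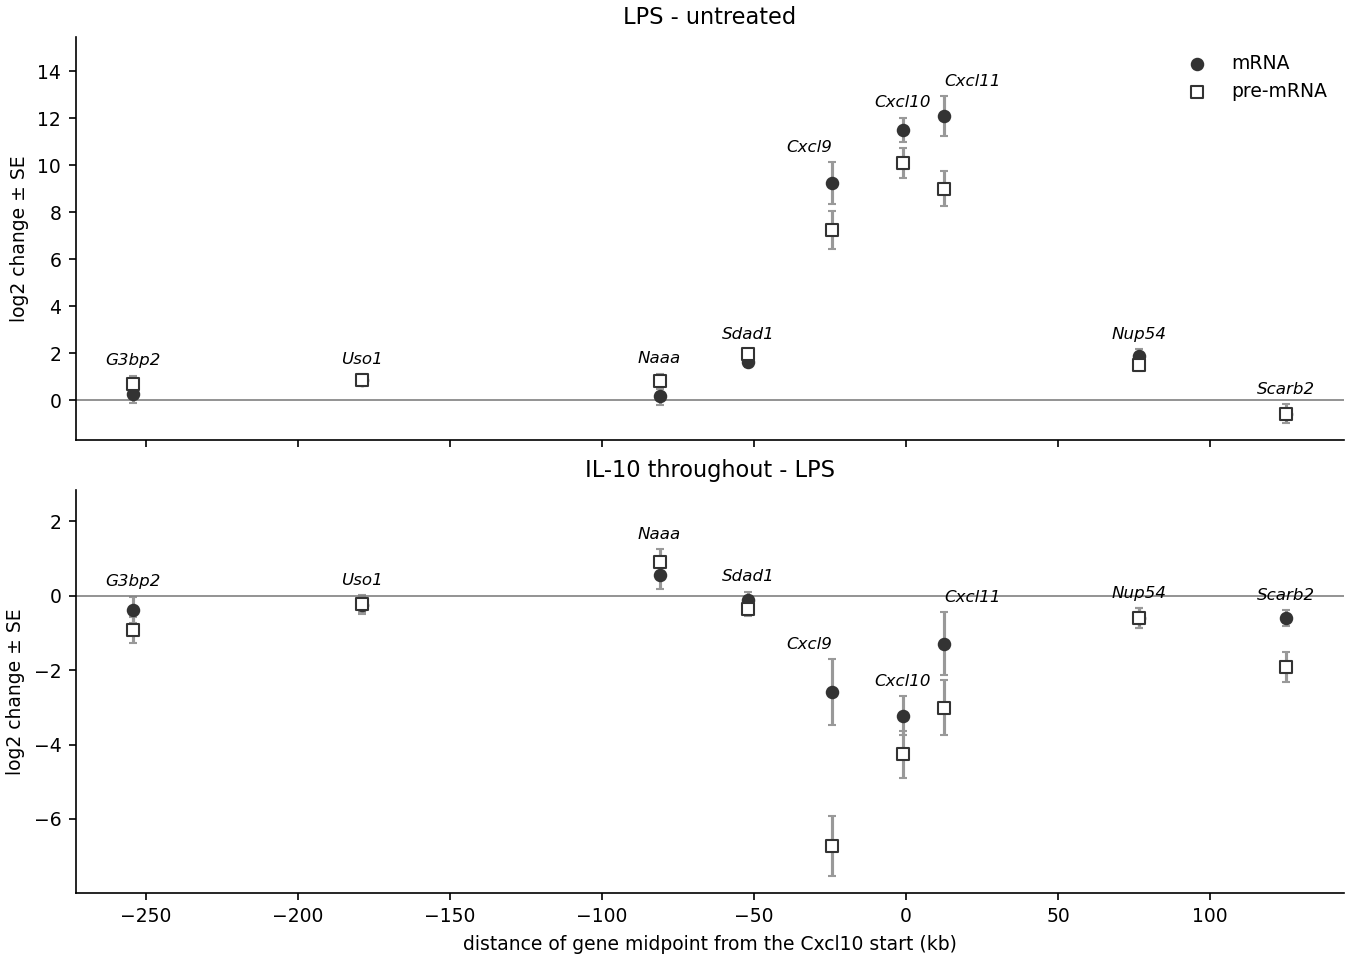
Fitted log2 changes ± SE of the ligand genes and the 6 other table genes around them, by distance of the gene's midpoint from the Cxcl10 start in kilobases, for LPS against untreated (top) and IL-10 throughout against LPS (bottom). Circles are mRNA and squares pre-mRNA; in the top panel the 3 ligand genes stand between 7.26 and 12.10 and no neighbour exceeds 1.97.

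Over the 8 mRNA libraries, the genes whose log2 levels followed each ligand gene most closely were found by Pearson's r, which here mostly reflects the 4 groups and the gap between libraries that all these genes share. For Cxcl9 they were Ccnl1 (0.9991), Eif1 (0.9985), Peli1 (0.9973) and the near-identical histocompatibility genes H2-Q9 (0.997) and H2-Q7 (0.9969), whose reads may be split between copies. For Cxcl10 they were Tnfsf15 (0.998), Il27 (0.9979), Plscr1 (0.9979), Sap30 (0.9976) and Tagap (0.9974). For Cxcl11 they were H2-Q4 (0.9996), Hdc (0.9993), Lcp2 (0.9991), Nrp2 (0.9985) and Cct3 (0.9975). The ligand genes followed each other with r of 0.9926 for Cxcl9 and Cxcl10, 0.9813 for Cxcl9 and Cxcl11, and 0.9839 for Cxcl10 and Cxcl11.

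Markers of other cell types moved in the same direction as the ligand genes between some groups. Of 6 dendritic cell markers 3 were in the table (Zbtb46, Xcr1 and Itgax), with a summed mRNA level of 1343 to 2877 in untreated libraries, 9436 to 17760 under LPS, 2949 to 4493 under IL-10 throughout and 8876 to 15860 under late IL-10. Most of this sum was Itgax, at 8923 and 17250 in the LPS libraries and 4215 and 2686 under IL-10 throughout. Of 7 stromal and endothelial markers 4 were in the table, at 1346 to 2424, 3743 to 4359, 1338 to 1441 and 3659 to 4270. Of 7 neutrophil markers 5 were in the table, at 40.96 to 264.6, 930.4 to 1080, 691.8 to 809.6 and 960.3 to 1209. The low summed level of the T and NK cell markers Cd4 and Lck went the other way under IL-10 throughout. It was 197.6 to 483.4 there, against 54.61 to 144.3 under LPS and 168.4 to 368.1 under late IL-10. The part of all these markers in the ligand results was not tested, and in bulk RNA fewer cells of a type and less RNA per cell cannot be told apart.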

How the data were processed

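The submitters' processing notes name Trim Galore, DESeq and the mouse build mm10. Of the aligner, the counter, the annotation and the rule that assigns reads to pre-mRNA, the sources used here name none. The authors deposited 1 table of normalised signal, the mean of 2 libraries per group, in 8 columns. Each value is a sum of whole multiples of 2 constants, which gave both libraries' reads for 100% of values (largest relative error 5.2e-15). The same step, tested on simulated data, returned 100% of the counts.

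Because the deposited columns are not counts, the count test planned for raw counts was replaced by limma-trend 3.58.1 (R 4.3.3) on log2(normalised reads + 1). All 8 libraries of a measure entered 1 fit, with no term besides the group. Genes with a mean of at least 1 were tested, and p-values were adjusted by Benjamini-Hochberg over 11415 genes in mRNA and 11131 in pre-mRNA, with 0.05 as the threshold. A fold change on this scale understates that of low genes. Changes in pre-mRNA and mRNA were compared in 1 joint fit. Where a group had no reads, that group was set at 3 reads in all to give a lower bound of the fold. Levels per kilobase use GENCODE principal transcripts.

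The ligand genes, gene lists and tests were chosen with earlier results of these data known. The text names the 3 ligand genes, at most 6 genes per list with the smallest adjusted p past the threshold, fixed pathway genes (Cxcr3, Pf4, Dpp4, Ifnb1, Ifng, Irf1 and Irf7), and the 5 genes per ligand with the highest r, leaving out predicted genes. The neighbouring genes were taken by position, outside the rule for named genes. One further gene that the rule names is not reported here. Sequences and gene positions come from RefSeq for GRCm38.p6. Alternatives were another pseudocount, filter, scaling, limma-voom, a fit on only the groups compared, and leaving out each library.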

Additional observations from a re-analysis of the deposited data

Results flagged for a closer look

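A difference between the 2 IL-10 schedules, tested directly as IL-10 throughout against late IL-10 by limma-trend, was found for 3 values of the ligand genes. Cxcl10 mRNA differed by -3.316 on the log2 scale (14400 against 151600 normalised reads on average). Cxcl10 pre-mRNA differed by -4.238 (288.5 against 5601). Cxcl9 pre-mRNA differed by -6.608 (0.5393 against 155.0). In each case both libraries of IL-10 throughout were the lower ones, and each of these calls depends on single libraries and on the settings listed in the next part.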

How the results depend on the processing

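Of 737 alternative values for 45 results on the ligand genes, 698 kept their side of the threshold, 30 no longer passed and 9 newly passed. The sign differed from the reported one in 26 values, all of them for late IL-10 against LPS, where no ligand gene passed, and no change of these genes that passed altered its sign. No paired analysis was possible from the labels, because the deposited columns carry no replicate number. Pairing the libraries by their values was not tried. In pre-mRNA, Cd14 was lower in library A of every group, at 119.9 against 1787 under LPS. All 20 interferon-stimulated genes were higher in pre-mRNA library A of each LPS-treated group, but only 4 in untreated cells. Whether these libraries share a pool was not tested. Any gap between pools stayed in the error of the fit. With limma-voom, Cxcl9 mRNA in IL-10 throughout against untreated (7.26, adjusted p = 0.062), Cxcl9 pre-mRNA in IL-10 throughout against LPS (-7.72, adjusted p = 0.072) and against late IL-10 (-7.61, adjusted p = 0.085), and Cxcl11 pre-mRNA in IL-10 throughout against untreated (7.24, adjusted p = 0.12) no longer passed. With only the 2 groups compared, Cxcl10 mRNA no longer passed against LPS (-3.23, adjusted p = 0.091) or late IL-10 (-3.32, adjusted p = 0.11). With no filter on low values, Cxcl10 pre-mRNA against LPS (-4.26, adjusted p = 0.052) and late IL-10 (-4.24, adjusted p = 0.08) and Cxcl9 pre-mRNA against late IL-10 (-6.61, adjusted p = 0.056) no longer passed. Cxcl11 pre-mRNA newly passed with a pseudocount of 8 against LPS (-2.87) and late IL-10 (-3.33), under upper-quartile scaling against both (-2.77 and -3.29), and under scaling to total reads against late IL-10 (-3.04). Leaving out each library, the range for IL-10 throughout was, against LPS, -3.88 to -2.57 for Cxcl10 mRNA, -4.73 to -3.80 for Cxcl10 pre-mRNA and -3.94 to -2.07 for Cxcl11 pre-mRNA, and, against late IL-10, -3.90 to -2.74, -4.59 to -3.89 and -4.20 to -2.75, with -7.28 to -5.94 for Cxcl9 pre-mRNA. A group left with 1 library is assumed there to vary like the others. The cause of these changes was not tested. Counts of all genes passing moved more: for IL-10 throughout against LPS, 256 in mRNA became 83 with only the 2 groups and 43 without LPS library B, and 746 in pre-mRNA became 307 with no filter, 407 with only the 2 groups and 62 without library B of IL-10 throughout. Against late IL-10, 124 in mRNA became 0 with only the 2 groups and 1 without library A of late IL-10, and 329 in pre-mRNA became 26 with no filter, 143 with only the 2 groups and 1 without library A of IL-10 throughout. For late IL-10 against LPS, 116 in pre-mRNA became 65 with no filter and 35 with only the 2 groups. Scaling to total reads moved the share of higher calls for LPS against untreated from 53.8% to 21.1% in mRNA and from 50.7% to 20.9% in pre-mRNA, and for IL-10 throughout against LPS from 53.1% to 63.3% and from 36.5% to 52.9%. Low reads limit the values of Cxcl9, with 2 mRNA reads in untreated cells and 1 pre-mRNA read under IL-10 throughout, and of Cxcl11, with no read in untreated cells.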
